A study of Mus musculus with 12 samples.

Results

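A set of 8 genes of the circadian clock, Nr1d2, Nr1d1, Cry1, Per1, Per2, Bhlhe40, Dbp and Tef, was followed in T cells that had met a strong or a weak peptide in the mouse. They were represented by every probe set of the deposited value table whose only gene symbol in the platform annotation was one of these names, which gave 13 of 22690 probe sets, for 8 of 12394 genes with a probe set of their own. The genes share a function in the clock and were chosen with earlier results of these data known. Nr1d2 leads the set and was taken to have been selected on its measured difference between the peptides at 2 µg. Values of that comparison are therefore given for the 8 genes as a description, without a test. Which values led to the choice is not recorded, so the tests of these genes at 0.2 µg and between doses may not be free of it.

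The cells carried 5CC7, a transgenic receptor restricted by MHC class II, and they were given to B10.A recipients through the tail vein. Recipients were then injected intravenously with MCC, the strong agonist of this receptor, or with 102S, a weak one. The 4 groups were MCC at 2 µg, 102S at 2 µg, MCC at 0.2 µg and 102S at 0.2 µg, with 3 arrays each and 12 arrays in all. In every group the lymph nodes were pooled after 48 h and the transferred cells were sorted, so that all groups shared the transgene, the host strain and the sampling time. Cells that had met no peptide were not analysed here, and neither the time of day of collection nor the origin of the replicates is given in the sources used here. The p-values thus measure only the spread between these arrays. Xist, given below, set replicate 1 of each group apart from replicates 2 and 3, so the spread has a part that is not technical, while that between replicates 2 and 3 may be technical.

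The clock is a feedback loop of transcription. CLOCK and BMAL1, the product of Arntl, activate genes through E-boxes in their promoters, and the PER and CRY proteins made from such genes block that activation. The nuclear receptors REV-ERBα and REV-ERBβ, encoded by Nr1d1 and Nr1d2, repress Arntl at sites they share with the ROR activators, while the outputs Dbp and Tef encode activators that bind D-boxes. Lymphocytes and lymph nodes carry this oscillator, and Bhlhe40, a repressor at E-boxes, is also known as a gene that T cell receptor signals induce in CD4 T cells.

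The deposited values are log2 expression values per probe set. Probe sets whose mean over the 12 arrays reached log2 4.48, the 40th percentile, were tested. Of the 8 genes, 6 passed this filter with 7 probe sets, while Nr1d1 and both probe sets of Per2 lay below it. Every group mean of the 7 tested probe sets was above the filter, the lowest being 4.85 for Bhlhe40 in cells given 102S at 0.2 µg. The lineage markers Cd3d (12.7 to 13.1), Cd3g (11.4 to 11.9) and Cd4 (6.80 to 7.75) were read on every array, and the CD8 genes Cd8a and Cd8b1 were read at 5.18 to 6.42 and 7.03 to 8.31. Markers of other cells that passed the filter were Klrd1 and Nkg7 of NK cells, Cd79b (3.95 to 5.96) of B cells, and Lyz2 (4.15 to 5.89) and Csf1r (4.85 to 5.72) of myeloid cells. Those below it were Ncr1, Ms4a1, Cd79a, Itgam, Itgax, Cd14, Hba-a1 and Alas2. Xist separated the replicate 1 arrays of all groups (10.35 to 11.03, female-type) from the other 8 arrays (2.27 to 2.78, male-type). The β-actin 3′ minus 5′ difference, a sign of RNA quality, averaged 0.63 ± 0.12 with MCC and 1.24 ± 0.41 with 102S at 2 µg, and 1.62 ± 0.81 with MCC and 1.33 ± 0.88 with 102S at 0.2 µg (SD, n = 3 each), and its part in the results below was not tested except where a value is given.

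**Figure D1:**
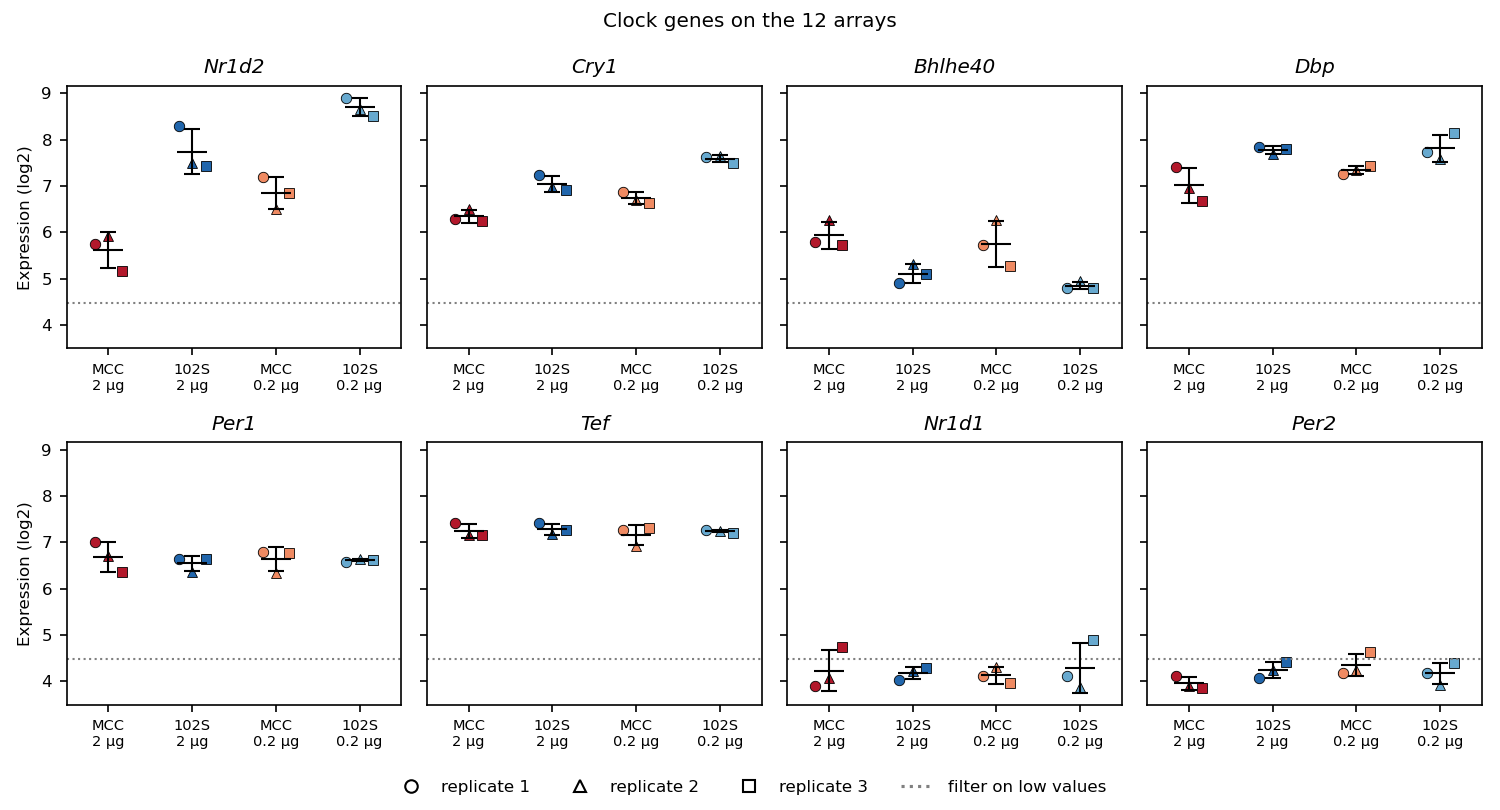
Log2 expression of the 8 clock genes by group, with 1 symbol per array, the group mean and SD as bars, and the filter on low values as a dotted line; Per2 and the other genes are shown by their probe set with the highest mean. Nr1d2 and Cry1 separate all 4 groups, Bhlhe40 is higher with MCC than with 102S at both doses, and Per1, Tef, Nr1d1 and Per2 overlap between the peptides.

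Nr1d2, the gene of the repressor REV-ERBβ, was lower in MCC-stimulated than in 102S-stimulated cells at both doses, and lower at 2 µg than at 0.2 µg of either peptide by its means. At 2 µg its probe set 1416958_at read 5.76, 5.92 and 5.17 log2 on the MCC arrays, against 8.30, 7.50 and 7.43 on the 102S arrays. The lower dose gave 7.19, 6.50 and 6.84 on the MCC arrays, against 8.90, 8.67 and 8.52 on the 102S arrays. All 3 MCC arrays lay below all 3 102S arrays at each dose, and the 4 groups did not overlap at any step. The difference at 2 µg, which the choice of genes used, was -2.12 ± 0.27 log2 (SE of the fit), or 4.36-fold lower with MCC. The difference at 0.2 µg was -1.86 ± 0.27, or 3.62-fold lower with MCC (limma, Benjamini-Hochberg adjusted p = 0.000549), and leaving out any 1 array kept the adjusted p between 0.000183 and 0.00425. Within the female-type replicate 1 arrays the 0.2 µg difference was -1.72, and within the male-type arrays it was -1.92 (limma on these arrays alone, adjusted p = 0.000386). The interaction of peptide and dose, the peptide difference at 2 µg minus that at 0.2 µg, was -0.27 ± 0.38 for Nr1d2, within its error, as were those of Cry1 (0.15 ± 0.20) and Bhlhe40 (-0.07 ± 0.34).

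Nr1d2 was also lower at 2 µg than at 0.2 µg of MCC, with a call close to the threshold. Cells given MCC averaged 5.62 ± 0.39 at 2 µg and 6.84 ± 0.34 at 0.2 µg (SD, n = 3 each), a difference of -1.22 ± 0.27, or 2.33-fold lower at 2 µg (limma, adjusted p = 0.0401). This call was lost on leaving out MCC 2 µg replicate 1, 2 or 3 (adjusted p = 0.0841, 0.0636 and 0.137), 102S 2 µg replicate 2 or 3 (0.0611 and 0.0530), MCC 0.2 µg replicate 2 or 3 (0.0568 and 0.155), or 102S 0.2 µg replicate 1 or 2 (0.0543 and 0.0635). The difference itself lay between -1.40 and -1.001 over the 12 omissions, and stayed at -1.22 where a 102S array was left out. The call was also lost without an intensity trend (0.0501), with the MCC arrays fitted alone (0.0733), and with the 2 arrays of largest β-actin difference left out (0.121). Cells given 102S averaged 7.74 ± 0.49 at 2 µg and 8.70 ± 0.19 at 0.2 µg, a difference of -0.95 ± 0.27 that did not pass (limma, adjusted p = 0.0875). Without 102S 2 µg replicate 1, the highest of its group, that difference was -1.23 and passed (adjusted p = 0.0212). It also passed with the replicate number (0.00908) or the sex type (0.0105) as a block, on the male-type arrays alone (0.0426), after quantile normalization (0.0344) and with the β-actin covariate (0.00541), and its direction was the same in 3 of 3 replicate numbers. Within the female-type and the male-type arrays the dose differences were -1.42 and -1.12 for MCC, and -0.60 and -1.13 for 102S. These dose comparisons share their 2 µg arrays with the comparison the choice of Nr1d2 used. The mean of Nr1d2 with MCC at 2 µg differed by -3.08 log2 from that with 102S at 0.2 µg, a factor of 8.44. The second probe set of Nr1d2, 1416959_at, lay below the filter at 2.43 to 3.27, with a group mean of 2.67 for MCC and 2.80 for 102S at 2 µg, and of 2.83 for MCC and 3.13 for 102S at 0.2 µg.

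Cry1, which encodes the CRY1 repressor of CLOCK and BMAL1, followed the same order with smaller steps. At 2 µg it read 6.28, 6.51 and 6.24 on the MCC arrays, against 7.23, 6.97 and 6.92 on the 102S arrays. At 0.2 µg it read 6.88, 6.69 and 6.64 on the MCC arrays, against 7.62, 7.64 and 7.50 on the 102S arrays. No MCC array reached a 102S array of the same dose, and the 4 groups were again separate. The peptide difference was -0.69 ± 0.14 at 2 µg (no test) and -0.85 ± 0.14 at 0.2 µg, or 1.80-fold lower with MCC (limma, adjusted p = 0.00143, and 0.00141 to 0.00975 over the 12 omissions of 1 array). At 0.2 µg it was -0.73 within the female-type and -0.91 within the male-type arrays (male-type alone, adjusted p = 0.0159). Dose differences were -0.39 ± 0.14 for MCC (adjusted p = 0.179) and -0.55 ± 0.14 for 102S (adjusted p = 0.0558), so neither passed, although at each peptide all 2 µg arrays lay below all 0.2 µg arrays. The 102S dose difference of Cry1 passed without MCC 2 µg replicate 3 (adjusted p = 0.0422) and in 7 of 11 other settings, with a lowest adjusted p of 0.00784. Its mean with MCC at 2 µg differed by -1.24 log2 from that with 102S at 0.2 µg, a factor of 2.36.

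Nr1d2 and Cry1 were the genes of the set whose 12 arrays fell into 4 separate groups in the order MCC 2 µg, MCC 0.2 µg, 102S 2 µg and 102S 0.2 µg, lowest first. The same separation and order were found for 94 of the 13556 tested probe sets, or 0.693%. That order contains the 2 µg comparison used in choosing Nr1d2, so the share is a description and not a test. Promoter windows of both genes, 250 bases before to 50 bases after the start site, are shown because these genes moved together; they come from RefSeq on build GRCm38.p6. The Nr1d2 window is chr14:18239057-18239356 on the minus strand and the Cry1 window is chr10:85185005-85185304 on the minus strand. Capitals mark the motifs searched on both strands: the E-box CACGTG, a variant of it, CACGTT, which reads AACGTG on the opposite strand, the half-site of the ROR and REV-ERB receptors, AGGTCA, which reads TGACCT on the opposite strand, the D-box TTANGTAA and the cyclic AMP response element TGACGTCA.
Nr1d2: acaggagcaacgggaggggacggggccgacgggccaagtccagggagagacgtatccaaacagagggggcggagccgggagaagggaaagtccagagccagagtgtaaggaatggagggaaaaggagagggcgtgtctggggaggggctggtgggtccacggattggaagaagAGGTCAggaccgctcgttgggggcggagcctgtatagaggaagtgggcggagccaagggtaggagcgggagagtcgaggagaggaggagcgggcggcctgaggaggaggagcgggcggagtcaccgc
Cry1: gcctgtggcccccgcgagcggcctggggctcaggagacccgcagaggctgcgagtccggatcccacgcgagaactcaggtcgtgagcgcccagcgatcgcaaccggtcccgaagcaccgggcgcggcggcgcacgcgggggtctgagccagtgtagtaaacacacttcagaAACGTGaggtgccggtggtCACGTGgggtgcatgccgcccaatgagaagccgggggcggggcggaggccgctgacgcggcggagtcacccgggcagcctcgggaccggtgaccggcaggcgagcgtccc
The Nr1d2 window held AGGTCA, beginning at base -77 from the start site, and no E-box. The Cry1 window held CACGTG from base -60 and AACGTG from base -79. These matches describe the letters only and are not evidence of a factor bound there.

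Per2 and Nr1d1, the partners of these repressors, were read near the floor of the arrays and were not tested. Nr1d1, the gene of REV-ERBα, lay between 3.87 and 4.89 over the 12 arrays. Its group means were 4.23 for MCC and 4.18 for 102S at 2 µg, and 4.13 for MCC and 4.29 for 102S at 0.2 µg, with overlapping arrays. Per2, a PER repressor, had 2 probe sets that differed in pattern. By 1417602_at, MCC arrays read 3.75, 3.68 and 3.09, against 3.99, 4.06 and 4.13 on 102S arrays at 2 µg, and 4.08, 3.25 and 3.48 on MCC arrays, against 4.28, 4.45 and 4.37 on 102S arrays at 0.2 µg. The peptides did not overlap by this probe set at either dose, with differences of -0.55 ± 0.22 at 2 µg and -0.77 ± 0.22 at 0.2 µg. By 1417603_at, which had the higher mean and lay between 3.86 and 4.63, the peptides overlapped at both doses. Both probe sets lay below the filter, so no direction is given for Per2.

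Per1, another PER repressor and an early target of glucocorticoid and cyclic AMP signals, did not pass in any tested comparison. At 2 µg it read 7.01, 6.70 and 6.35 on the MCC arrays, against 6.64, 6.35 and 6.64 on the 102S arrays. At 0.2 µg Per1 read 6.80, 6.33 and 6.76 on the MCC arrays, against 6.58, 6.63 and 6.62 on the 102S arrays. The groups overlapped throughout. The peptide difference at 0.2 µg was 0.02 log2 with a 95% interval of -0.38 to 0.42 (limma, adjusted p = 0.965). The dose intervals were -0.35 to 0.46 for MCC and -0.47 to 0.34 for 102S. Its mean with MCC at 2 µg differed by 0.07 log2 from that with 102S at 0.2 µg.

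Bhlhe40, the repressor induced by receptor signals, was higher with MCC. At 2 µg it read 5.80, 6.27 and 5.73 on the MCC arrays, against 4.90, 5.33 and 5.11 on the 102S arrays. At 0.2 µg Bhlhe40 read 5.72, 6.26 and 5.27 on the MCC arrays, against 4.80, 4.95 and 4.81 on the 102S arrays. MCC arrays lay above 102S arrays at each dose, whereas MCC at 0.2 µg and 102S at 2 µg overlapped. The peptide difference was 0.82 ± 0.24 at 2 µg (no test) and 0.90 ± 0.24 at 0.2 µg, or 1.86-fold higher with MCC (limma, adjusted p = 0.0252). This call was lost without MCC 0.2 µg replicate 2 (adjusted p = 0.112), without 102S 0.2 µg replicate 1 (0.0803) or replicate 2 (0.0613), with the 0.2 µg arrays fitted alone (0.0832) and on the male-type arrays alone (0.108). Its size was 0.92 within the female-type and 0.89 within the male-type arrays. Dose made a difference of 0.19 ± 0.24 with MCC (adjusted p = 0.692) and 0.26 ± 0.24 with 102S (adjusted p = 0.780), and neither passed.

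Dbp, an output gene of the clock whose product binds D-boxes, was lower with MCC on the arrays of its brighter probe set but did not pass at 0.2 µg. By 1438211_s_at it read 7.41, 6.96 and 6.67 on the MCC arrays, against 7.85, 7.69 and 7.80 on the 102S arrays at 2 µg. At 0.2 µg Dbp read 7.25, 7.34 and 7.43 on the MCC arrays, against 7.73, 7.58 and 8.15 on the 102S arrays. By this probe set all MCC arrays lay below all 102S arrays of the same dose. The difference was -0.77 ± 0.19 at 2 µg (no test) and -0.47 ± 0.19 at 0.2 µg (limma, adjusted p = 0.125, and 0.0293 with the β-actin difference as a covariate), and -0.47 within the female-type as within the male-type arrays. The second tested probe set of Dbp, 1418174_at, gave -0.51 ± 0.28 at 2 µg (no test) and -0.66 ± 0.28 at 0.2 µg (adjusted p = 0.148), and its MCC and 102S arrays overlapped at 2 µg but not at 0.2 µg. Dose differences of 1438211_s_at were -0.33 ± 0.19 for MCC (adjusted p = 0.372) and -0.03 ± 0.19 for 102S (adjusted p = 0.979).

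Tef, the gene of another D-box activator, did not pass in any tested comparison. At 2 µg its probe set 1424175_at read 7.42, 7.16 and 7.16 on the MCC arrays, against 7.42, 7.18 and 7.26 on the 102S arrays. At 0.2 µg Tef read 7.26, 6.92 and 7.31 on the MCC arrays, against 7.26, 7.25 and 7.21 on the 102S arrays. The arrays of all 4 groups overlapped. The 0.2 µg peptide difference was -0.08 log2 with a 95% interval of -0.38 to 0.23 (limma, adjusted p = 0.772), and the dose intervals were -0.22 to 0.39 for MCC and -0.26 to 0.35 for 102S. Its 2 other probe sets lay below the filter, at 4.08 to 4.96 and 3.46 to 4.10.

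Promoter windows of Per1 and Tef, whose levels overlapped between all groups, are given beside those of Nr1d2 and Cry1 above, with the same marks. They are the first RefSeq windows of each gene, chr11:69098699-69098998 on the plus strand for Per1 and chr15:81802423-81802722 on the plus strand for Tef.
Per1: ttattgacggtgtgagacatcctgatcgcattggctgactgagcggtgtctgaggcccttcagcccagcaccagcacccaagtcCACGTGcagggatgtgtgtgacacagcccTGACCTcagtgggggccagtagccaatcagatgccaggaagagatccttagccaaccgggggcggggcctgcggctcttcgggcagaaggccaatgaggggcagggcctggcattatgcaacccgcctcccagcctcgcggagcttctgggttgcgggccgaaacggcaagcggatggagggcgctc
Tef: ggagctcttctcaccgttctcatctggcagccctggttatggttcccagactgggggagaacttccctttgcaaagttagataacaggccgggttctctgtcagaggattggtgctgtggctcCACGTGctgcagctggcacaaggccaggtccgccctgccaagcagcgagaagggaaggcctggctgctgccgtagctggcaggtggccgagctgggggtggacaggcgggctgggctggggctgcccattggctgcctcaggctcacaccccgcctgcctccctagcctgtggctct
The Per1 window held CACGTG from base -166 and TGACCT from base -137, and the Tef window held CACGTG from base -127. Of the 8 windows found for 6 of the genes, 4 windows of 3 genes (Cry1, Per1 and Tef) held the E-box, which 7.15% of 32851 RefSeq windows hold. The CACGTT motif was in 2 of the 8 windows (Cry1 and Nr1d1), against 4.68% of all windows, and AGGTCA in 2 (Nr1d2 and Per1), against 16.3%. Neither the D-box nor the cyclic AMP response element was in any of the 8, and 2.32% and 1.79% of all windows hold these letters. An E-box was thus in the windows of a gene that was lower with MCC (Cry1) and of genes with overlapping levels (Per1, Tef).

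**Figure D2:**
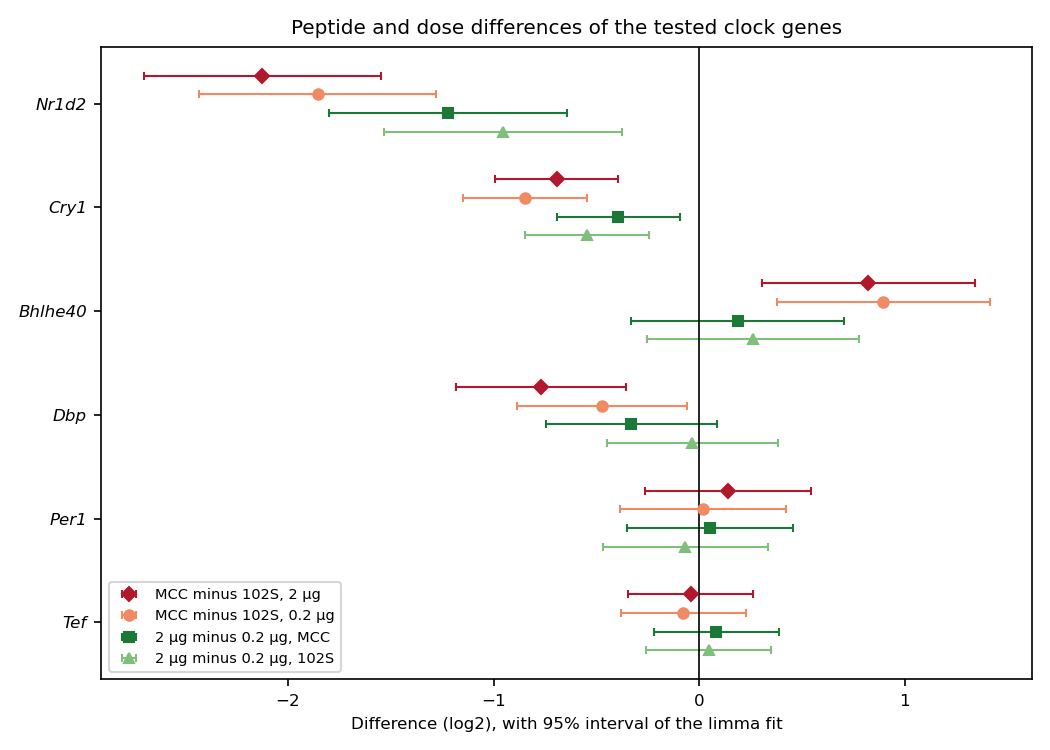
Differences in log2 expression of the 6 tested clock genes, with 95% intervals from the limma fit, for MCC minus 102S at 2 µg and 0.2 µg and for 2 µg minus 0.2 µg of MCC and of 102S. Nr1d2 lies furthest below 0 in all 4 differences, Bhlhe40 lies above 0 for the peptides, and the intervals of Per1 and Tef include 0 in the tested differences. The peptide differences at 2 µg are drawn as a description and carry no test.

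Counted over the set, 3 of the 6 tested genes passed between the peptides at 0.2 µg, 1 higher with MCC (Bhlhe40) and 2 lower (Nr1d2, Cry1), and 4 had an unadjusted p under 0.05. Of all 13556 probe sets 14.3% passed there, 7.85% higher and 6.45% lower. The arrays of the peptides did not overlap for 4 of the 6 genes at 0.2 µg, against 28.5% of all probe sets. They did not overlap for the same 4 genes at 2 µg, where 32.2% of all probe sets did not overlap and 10.3% passed the test, and the choice of genes used that comparison. For the dose of MCC 1 of 6 genes passed, the lower Nr1d2 (background 1.76%, and 1.05% lower), with 2 at an unadjusted p under 0.05. For the dose of 102S limma called 0 of 6 (background 3.16%), again with 2 at an unadjusted p under 0.05. These 2, Nr1d2 and Cry1, passed with the replicate number as a block, where 828 of all 13556 probe sets passed. At each peptide 2 of the 6 genes, Nr1d2 and Cry1, had all 2 µg arrays below all 0.2 µg arrays, against 10.8% of probe sets for MCC and 8.08% for 102S. The median difference of the 6 genes was -0.28 log2 between the peptides at 0.2 µg, -0.14 for the dose of MCC and -0.05 for the dose of 102S, beside -0.04, -0.01 and -0.003 over all tested probe sets. Both dose comparisons share their 2 µg arrays with the comparison that the choice of Nr1d2 used. The set was chosen with results of these data known, so its counts beside the background shares are a description and not a test.

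A list of 31 other clock genes was set beside these 8. Of these, 26 had a probe set and 20 were tested. The activators Arntl, Clock and Rora did not pass at either dose by the probe set of highest mean. Arntl, the gene that REV-ERBβ represses, averaged 6.71 ± 0.38 with MCC and 6.66 ± 0.06 with 102S at 2 µg, and 6.31 with MCC and 6.45 with 102S at 0.2 µg, with differences of 0.05 ± 0.27 (adjusted p = 0.932) and -0.14 ± 0.27 (adjusted p = 0.790). The 95% intervals of Arntl were -0.54 to 0.65 at 2 µg and -0.73 to 0.45 at 0.2 µg. Clock differed by -0.16 ± 0.32 at 2 µg (limma, adjusted p = 0.818) and by -0.76 ± 0.32 at 0.2 µg (0.146), with overlapping arrays. A second probe set of Clock, 1418660_at, was lower with MCC at 2 µg (-0.60 ± 0.16, adjusted p = 0.0342), a call lost without MCC 2 µg replicate 1 or 3, 102S 2 µg replicate 2 or 3, or 102S 0.2 µg replicate 2 (adjusted p up to 0.145), and in 3 other settings (up to 0.148). At 0.2 µg 1418660_at differed by -0.46 ± 0.16 without passing (limma, adjusted p = 0.0776), and its peptides did not overlap.

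Cry2, the paralogue of Cry1, averaged 5.68 with MCC and 5.89 with 102S at 2 µg, and 5.49 with MCC and 5.96 with 102S at 0.2 µg. Its differences were -0.21 ± 0.19 (limma, adjusted p = 0.547) and -0.47 ± 0.19 (adjusted p = 0.121), so it did not pass. None of the 6 tested kinases and ligases that set the stability of PER and CRY passed at either dose (1 and 0 at an unadjusted p under 0.05). By the probe set of highest mean, Csnk1e, the gene of casein kinase 1 epsilon, had the largest differences of the 6 in size. They were -0.77 ± 0.32 at 2 µg (adjusted p = 0.164) and -0.66 ± 0.32 at 0.2 µg (adjusted p = 0.203). The probe sets of Csnk1d differed among themselves at 2 µg, with -0.11 ± 0.16 for the one of highest mean and 0.80 ± 0.53 for 1449932_at (limma, adjusted p = 0.735 and 0.404).

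The genes of the list that rose with MCC also have roles in the cell cycle. Wee1, an output gene whose kinase holds back entry into mitosis, read 6.47, 6.84 and 6.67 on the MCC arrays, against 5.73, 5.73 and 5.50 on the 102S arrays at 2 µg. At 0.2 µg Wee1 read 6.64, 6.78 and 6.62 on the MCC arrays, against 5.23, 4.45 and 5.27 on the 102S arrays. The peptides did not overlap at either dose, and Wee1 was 1.00 ± 0.21 log2 higher at 2 µg (limma, adjusted p = 0.00934) and 1.70 ± 0.21 higher at 0.2 µg (adjusted p = 0.00015). A second probe set of Wee1, 1416774_at, lay below the filter and was not tested. It differed by 0.41 ± 0.21 at 2 µg and 0.40 ± 0.21 at 0.2 µg, and its peptides overlapped at both doses. Tipin, which with Timeless protects replication forks, was 0.68 ± 0.17 higher with MCC at 2 µg (adjusted p = 0.0230) and 0.83 ± 0.17 higher at 0.2 µg (adjusted p = 0.00595). Timeless was 0.77 ± 0.17 higher with MCC at 0.2 µg (adjusted p = 0.0106) and 0.25 ± 0.17 at 2 µg (adjusted p = 0.425). Its second tested probe set, 1417587_at, did not pass, with 0.62 ± 0.26 at 0.2 µg (limma, adjusted p = 0.146) and 0.10 ± 0.26 at 2 µg (0.865). The peptides overlapped by that probe set at both doses. Sirt1, a deacetylase that acts on clock proteins, was lower with MCC at 0.2 µg, with a difference of -0.87 ± 0.23 (adjusted p = 0.0266), and differed by -0.65 ± 0.23 at 2 µg (adjusted p = 0.105).

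Calls of Wee1 held on omission of any 1 array (adjusted p up to 0.0483 at 2 µg and 0.00141 at 0.2 µg). Tipin lost its 2 µg call without MCC 2 µg replicate 2 or 3 or any one of the 102S 2 µg replicates (adjusted p up to 0.0856), and its 0.2 µg call with the 2 arrays of largest β-actin difference left out (0.0582). Timeless lost its call without MCC 0.2 µg replicate 3 or 102S 0.2 µg replicate 2 (up to 0.0503), with those 2 arrays left out or with the 0.2 µg arrays fitted alone (up to 0.0925). Sirt1 lost its call without MCC 0.2 µg replicate 2 or 3 or 102S 0.2 µg replicate 1 or 2 (up to 0.125), and with the 0.2 µg arrays fitted alone (0.0597). The probe sets of Nono, a partner of PER proteins, disagreed at 0.2 µg, with 0.39 ± 0.10 for 1415820_x_at (adjusted p = 0.0239), -0.67 ± 0.19 for 1431239_at (adjusted p = 0.0344) and 0.12 ± 0.14 for 1448103_s_at (adjusted p = 0.655), so no direction is given.

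In counts, limma called 2 of the 20 other clock genes higher and 0 lower with MCC at 2 µg (5 at an unadjusted p under 0.05). Of all probe sets 10.3% were called there, with 4.04% higher. At 0.2 µg limma called 3 higher and 1 lower (6 at an unadjusted p under 0.05), against 14.3% of all probe sets called, 7.85% higher and 6.45% lower. For dose it called 0 of 20 with MCC (background 1.76%) and 0 of 20 with 102S (background 3.16%), with 1 and 2 at an unadjusted p under 0.05, and for the interaction 0 of 20 (1 at an unadjusted p under 0.05, background 0.767%). Their median difference between the peptides was -0.03 at 2 µg and 0.09 at 0.2 µg, beside -0.04 at each dose over all tested probe sets.

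**Figure D3:**
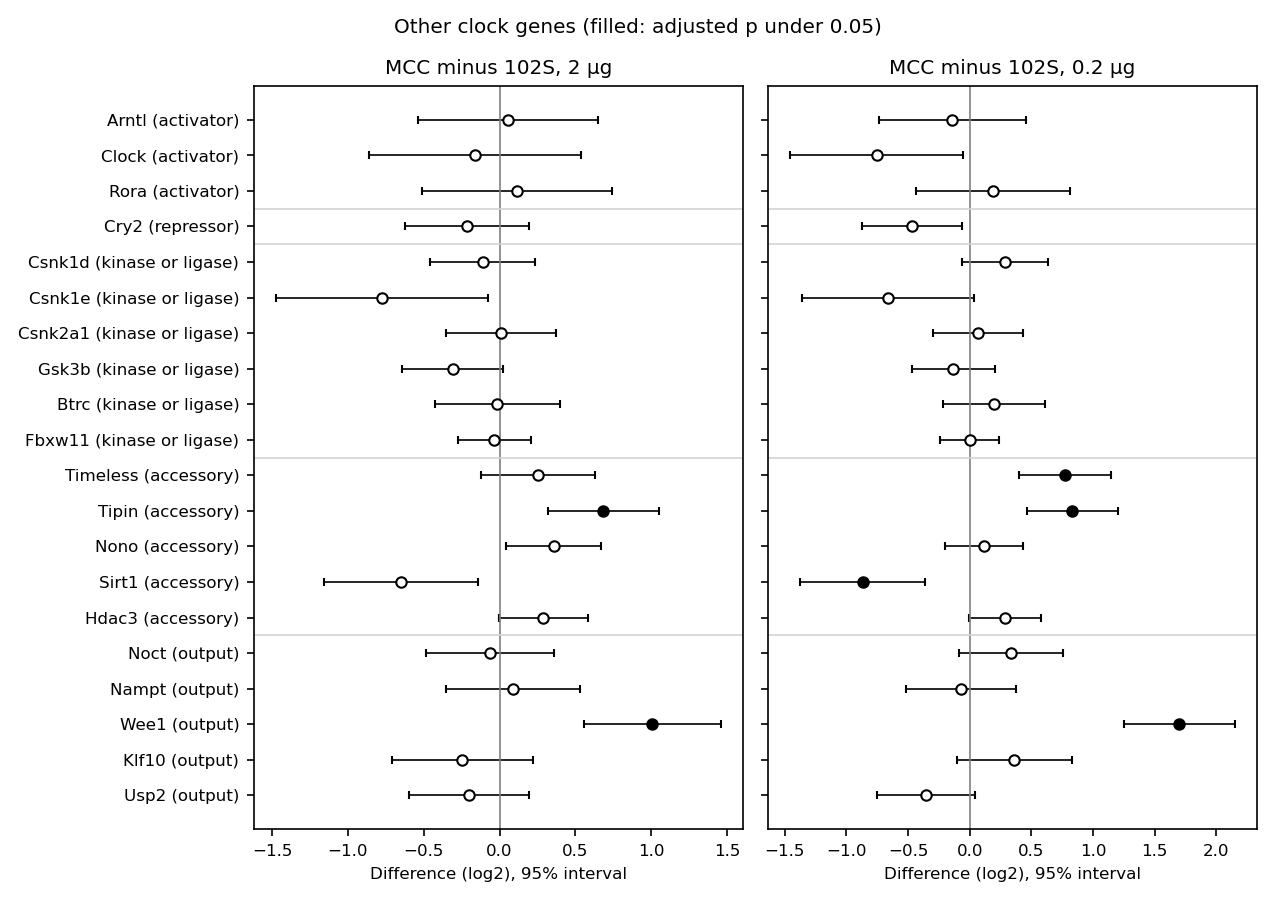
Differences MCC minus 102S in log2 expression of the 20 other tested clock genes at 2 µg and 0.2 µg, with 95% intervals of the limma fit, grouped by role; filled points passed at an adjusted p under 0.05. Wee1 and Tipin lie above 0 at both doses, Timeless passed above and Sirt1 below 0 at 0.2 µg, and the activators, Cry2 and the kinases and ligases did not pass.

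The genes whose centred values lay closest to those of Nr1d2 over the 12 arrays were Gbp7, a guanylate-binding protein, with a root mean square difference of 0.292 log2, Bach1, a transcriptional repressor (0.374), Mtss1 (0.389), Rflnb (0.411) and Lmo4 (0.420). Among 7944 genes ranked in this way, Cry1 came 109th and Dbp 430th, while Tef came 3409th, Per1 4263rd and Bhlhe40 7629th. Closest to Bhlhe40 were Rfc5 (0.209), a subunit of the clamp loader of DNA replication, Larp1b (0.214), Abhd6 (0.218), Akr1e1 (0.220) and Mbnl3 (0.222). The clock genes of the set were thus spread over the ranking. A rank depends on the size of the changes as well as on their order, and Cry1 had the group order of Nr1d2 with smaller steps. These distances describe 12 shared arrays and carry no test.

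**Figure D4:**
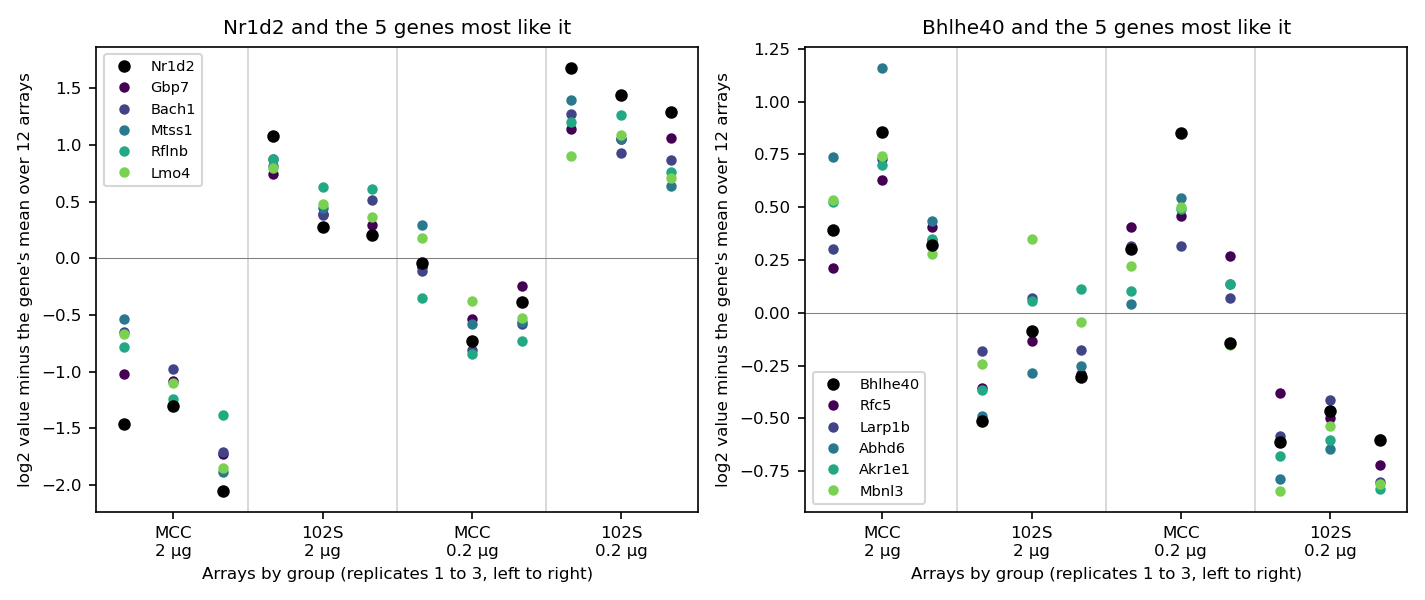
Log2 values minus the gene's mean over the 12 arrays for Nr1d2 (left) and Bhlhe40 (right), as black points for the replicates of each group, with the 5 genes of smallest root mean square difference as coloured points. Nr1d2 is lowest with MCC at 2 µg and highest with 102S at 0.2 µg, and Bhlhe40 is lowest with 102S at 0.2 µg.

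Other gene groups moved with the same groups of arrays, and their part in the clock results was not tested. All 7 tested genes of a list of 8 mitosis genes were higher with MCC at both doses. Of all tested probe sets, 4.04% were higher at 2 µg and 7.85% at 0.2 µg. The mean of that list per array was 7.89 to 8.08 with MCC and 5.79 to 6.49 with 102S at 2 µg, and 7.27 to 7.42 with MCC and 3.70 to 3.85 with 102S at 0.2 µg. Of 5 measured genes of resting T cells, 4 were lower with MCC at each dose, beside 844 of all 13556 probe sets at 2 µg and 6.45% at 0.2 µg. The mean of the 5 per array was 8.52 to 8.89 with MCC and 9.65 to 10.1 with 102S at 2 µg, and 8.42 to 8.98 with MCC and 10.2 to 10.7 with 102S at 0.2 µg. Of 5 tested glucocorticoid-induced genes, Sgk1 was lower with MCC at 2 µg (-1.63 ± 0.41, limma adjusted p = 0.0253), and at 0.2 µg Sgk1 was lower (-2.93 ± 0.41, adjusted p = 0.000452) and Dusp1 higher (1.41 ± 0.24, adjusted p = 0.00202). A list of 4 NK cell genes, of which 3 had a probe set, had means per array of 4.46 to 4.83 with MCC and 5.43 to 5.64 with 102S at 2 µg, and of 5.08 to 5.71 with MCC and 5.81 to 6.36 with 102S at 0.2 µg. Within it Klrd1 ranged over 4.20 to 8.84 on the 12 arrays and Nkg7 over 5.80 to 7.09, while the defining marker Ncr1 stayed at 2.50 to 3.42. Of 3 measured B cell genes, Cd79b was 1.26 log2 higher with MCC at 0.2 µg, and the mean of the 3 per array was 4.41 to 4.52 with MCC and 4.26 to 4.35 with 102S at 2 µg, and 4.54 to 4.74 with MCC and 4.10 to 4.77 with 102S at 0.2 µg. In these sorted bulk samples, fewer cells of one state and less RNA of a gene per cell cannot be told apart.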

How the data were processed

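Expression was measured on 12 Affymetrix mouse arrays, 3 for each of 4 groups of peptide and dose. The authors deposited 1 log2 value per probe set and array, read as log2 from their range of 1.86 to 14.7, and array medians lay between 5.17 and 5.26. GCOS 1.4 is named, per the submitters' processing notes, while the summary of probes, the background correction and the scaling are not given in the sources used here. Arrays carry no read depth, and their number limits the precision. The log2 values were used as deposited.

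Control probe sets (64) and probe sets with a mean under the 40th percentile were left out, which left 13556 of 22690. Of these 22690, 20393 had 1 gene symbol in the platform annotation, 691 several and 1606 none. A gene was represented by its probe set with the highest mean. A linear model with 4 group means was fitted to all 12 arrays in limma 3.58.1 (lmFit, then eBayes with an intensity trend; R 4.3.3). The Benjamini-Hochberg adjustment of the 2-sided p-values covered every tested probe set of a comparison, and 0.05 was the threshold. The fit was tested on simulated data. Gene symbols, chromosomes and promoter windows came from RefSeq (GRCm38.p6), in which all 8 genes were found and 6 had a window.

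The 8 genes, the other lists and the comparisons were chosen with earlier results of these data known. The text names all 8 genes, the other clock genes of a list, and the 5 genes most like Nr1d2 and most like Bhlhe40. Comparisons that share arrays are not independent. Alternatives covered the filter, normalization, intensity trend, arrays in the fit, replicate number and sex type as blocks, the male-type arrays alone, the β-actin difference as a covariate, other probe sets and the omission of each array. Leaving out the 2 arrays of largest β-actin difference was added after seeing the data.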

Additional observations from a re-analysis of the deposited data

How the results depend on the processing

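Between the peptides at 0.2 µg, 2 to 4 of the clock genes were called over all settings, against 3. The 1 call for the dose of MCC (Nr1d2) fell to 0 without an intensity trend, with only the arrays of the groups compared, and with the 2 arrays of largest β-actin difference left out, and ranged from 0 to 1 on leaving out 1 array. For the dose of 102S, with 0 calls, there was 1 with a mean of at least log2 6, median centring, no intensity trend or the male-type arrays alone, and 2 with quantile normalization, the replicate block, sex type as a block or the β-actin covariate (Nr1d2 and Cry1, both lower at 2 µg), with 0 to 1 on leaving out 1 array. Other clock genes called between the peptides at 2 µg numbered 2, but 1 with a mean of at least log2 6, 5 with the replicate block (3 higher, 2 lower), 4 with sex type as a block, 4 with the β-actin covariate, and 1 to 2 on leaving out 1 array. At 0.2 µg they numbered 4, but 2 with only the arrays of the groups compared, 2 with those 2 arrays left out, and 2 to 5 on leaving out 1 array. For the dose of MCC they numbered 0, but 1 with the replicate block and 0 to 1 on leaving out 1 array, and for that of 102S 0, but 1 with the β-actin covariate. Wee1 (mean 5.99) and Bhlhe40 (mean 5.41) lay below the filter of log2 6 and were not tested in that setting. The cause of the other changes was not tested. The called differences of Nr1d2, Cry1 and Bhlhe40 kept their sign in every setting run.

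Over all probe sets, the calls between the peptides at 2 µg numbered 1392, with 772 on the male-type arrays alone, 2485 with the replicate block and 3330 with the β-actin covariate, and 700 to 1601 on leaving out 1 array. At 0.2 µg they numbered 1939, with 1071 on the arrays of the groups compared, 3496 with the replicate block, 3006 with sex type as a block and 3645 with the β-actin covariate, and 1051 to 2785 on leaving out 1 array. For the dose of MCC they numbered 239, with 74 to 1563 over the settings and 61 to 1208 on leaving out 1 array, for the dose of 102S 429, with 269 to 1420 and 210 to 501, and for the interaction 104, with 82 to 321 and 62 to 142.

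Replicate numbers were shared by the groups. Deviations of same-numbered arrays from their group means correlated by more than 0.1 in 16 of 18 pairs (range -0.29 to 0.82), and by -0.80 to 0.51 in the 36 pairs of different number, and 10 of 12 arrays correlated best with an array of their own number. The main fit did not treat the arrays as paired, since 2 pairs fell short, although most same-numbered arrays were alike. Its spread thus includes differences between replicate numbers, and whether a difference passed depended in part on this choice. With the replicate number as a block, all calls rose from 239 to 1563 for the dose of MCC and from 429 to 828 for that of 102S. The 102S dose differences of Nr1d2 and Cry1 then passed (limma, adjusted p = 0.00908 and 0.0234). Signal near the floor limits Nr1d1, Per2 and the second probe set of Nr1d2.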
